A study of Mus musculus with 24 samples.

Results

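The genes described here encode the enzymes that attach ubiquitin to proteins and take it off again. They were chosen by symbol from the genes measured on the arrays, as all genes whose name starts with Ube2, Usp, Fbxo, Fbxw, Fbxl, Rnf, Trim or Cul in the numbered or lettered form of these families, which gave 161 of 8389 genes. The 161 comprised 23 Ube2, 26 Usp, 40 F-box, 42 Rnf, 23 Trim and 7 Cul genes. The cells were 3T3-L1 adipocytes, a mouse fibroblast line that becomes fat cells after hormonal induction. From day 11 post-induction they received the PPARδ selective agonist GW610742, the PPARγ selective agonist GW347845 or DMSO, the solvent control, for 2 days, in medium with serum and insulin for every group. Each treatment was measured on 6 Illumina mouse WG-6 arrays, which the methods call independent hybridizations. Nothing states that they came from separate cultures, so each p below measures the spread between arrays.

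The labels give 1 µM of GW610742 and 100 µM of GW347845, whereas the methods name only lower doses of GW347845, nanomolar in some experiments and 1 µM in others, so the dose behind the arrays was not settled. The 2 agonists are therefore set side by side at doses that may differ in strength. The values are on a log2 scale after a variance stabilizing transformation, on which a difference of 1 is about a doubling for bright probes and a larger change for dim ones. Percentages of the DMSO level below take each difference of 1 as an exact doubling, so for dim probes they understate the change. The agonist arrays were normalized in 2 sets, each together with the same 6 DMSO arrays, so every control value exists in 2 versions and each agonist was compared within its own set. A member was called when limma gave an adjusted p under 0.05 by the Benjamini-Hochberg method, counting every probe in its set. Of the members, 159 were measured in the GW610742 set and 160 in the GW347845 set, with 158 in both. Rnf125 and Usp2 had values only beside GW347845 and Trim59 only beside GW610742. The arrays measure bulk RNA, in which fewer cells of a type and less RNA per cell cannot be told apart.

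Ubiquitin is a small protein that is activated by an E1 enzyme, passed to an E2 conjugating enzyme (the Ube2 family) and joined to a target by an E3 ligase. Most members of the Rnf and Trim families carry a RING domain and bring E2 and target together directly. Cullins are scaffolds that hold a RING protein at one end and a substrate receptor at the other, and F-box proteins are the receptors of the Cul1 ligase, named SCF. Usp enzymes cleave ubiquitin off again. In fat cells this system sets the lifetime of PPARγ itself, of the C/EBP factors and of insulin receptor substrates. The symbol rule also took in genes that do something else, including 3 conjugators of ubiquitin-like proteins, among them Ube2f and Ube2l6. Usp6nl is a GTPase activating protein of the Rab family, Usp39 is a splicing factor without protease activity, Ube2v1 is an E2 variant without a catalytic cysteine, and Ube2cbp is a ligase rather than an E2.

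Members with calls in opposite directions with the 2 agonists, and the E2 with the largest change, are the genes for which promoters are shown. The arrays do not tell which start was in use. RefSeq (GRCm38.p6) held promoters for 122 of the 161 members, 167 starts in all, as 250 bases before to 50 bases after each start. For each gene the first start listed is printed 5′ to 3′ on the gene's strand. Cul1 and Rnf4 had 3 starts each. Starts 2 and 3 of Cul1 were 79.7% and 78.7% GC and held GC boxes, whereas the printed start was 52.0% GC and held none. Capitals mark AGGTCA, the half-site that nuclear receptors such as PPAR read, GGGCGG (GC box), CCAAT and CACGTG, on either strand. CACGTG overlaps the half-site by the letters CA in the Ube2q1 promoter. Fbxo25 is named only.
Cul1 (chr6:47453482-47453781, plus strand): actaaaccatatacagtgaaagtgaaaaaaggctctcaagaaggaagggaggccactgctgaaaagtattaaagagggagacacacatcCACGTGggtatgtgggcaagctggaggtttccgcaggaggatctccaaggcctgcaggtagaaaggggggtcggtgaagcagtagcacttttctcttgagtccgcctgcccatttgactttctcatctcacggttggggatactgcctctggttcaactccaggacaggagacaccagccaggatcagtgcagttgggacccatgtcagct
Trim47 (chr11:116110186-116110485, minus strand): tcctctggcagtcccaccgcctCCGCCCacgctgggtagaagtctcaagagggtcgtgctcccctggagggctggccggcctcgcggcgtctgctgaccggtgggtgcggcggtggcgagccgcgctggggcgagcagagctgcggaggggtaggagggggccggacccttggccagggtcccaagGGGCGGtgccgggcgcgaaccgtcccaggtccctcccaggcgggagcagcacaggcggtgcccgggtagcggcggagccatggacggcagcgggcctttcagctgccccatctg
Rnf4 (chr5:34336000-34336299, plus strand): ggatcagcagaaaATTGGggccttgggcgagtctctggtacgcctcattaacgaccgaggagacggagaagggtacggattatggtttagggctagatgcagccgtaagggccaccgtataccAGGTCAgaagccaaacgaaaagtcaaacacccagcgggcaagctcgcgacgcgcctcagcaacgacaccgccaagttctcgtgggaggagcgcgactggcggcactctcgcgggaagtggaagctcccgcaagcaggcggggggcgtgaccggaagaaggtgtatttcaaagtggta
Usp16 (chr16:87454735-87455034, plus strand): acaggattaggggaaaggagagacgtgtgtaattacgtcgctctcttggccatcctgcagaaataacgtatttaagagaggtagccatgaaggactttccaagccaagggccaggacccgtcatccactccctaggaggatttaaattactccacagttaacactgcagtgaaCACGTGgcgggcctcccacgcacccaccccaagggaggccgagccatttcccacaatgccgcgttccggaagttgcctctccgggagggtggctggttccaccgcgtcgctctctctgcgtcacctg
Ube2q1 (chr3:89773359-89773658, plus strand): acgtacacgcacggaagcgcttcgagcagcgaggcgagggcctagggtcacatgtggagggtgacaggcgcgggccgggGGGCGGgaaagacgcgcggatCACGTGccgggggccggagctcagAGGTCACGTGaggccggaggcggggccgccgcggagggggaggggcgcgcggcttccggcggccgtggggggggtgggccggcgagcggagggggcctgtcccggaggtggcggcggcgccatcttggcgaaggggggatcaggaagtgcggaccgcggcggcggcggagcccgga

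The half-site AGGTCA was in the Rnf4 and Ube2q1 promoters printed here and in none of the other 3. Over all member promoters it was in 23 of 167 (13.8%), and in 16.3% of all 32851 RefSeq mouse promoters of the same length, coding and noncoding genes together. The full PPAR element (DR1), 2 AGGTCA half-sites in the same direction with 1 base of any kind between them, on either strand, matched none of the 167 member promoters and 0.0396% of all. The GC box was in 73.1% of member promoters and in 35.7% of all, CCAAT in 28.7% and in 37.4%, and CACGTG in 10.2% and in 7.15%. These matches describe letters in a window, not sites of binding.

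Both sets carried adipocyte transcripts. Of 12 mature adipocyte markers, 7 had values in the GW610742 set and 9 in the GW347845 set. The mean level of those measured ran over 9.24 to 9.98 with GW610742 and 9.07 to 9.87 with DMSO, and over 8.42 to 9.80 with GW347845 and 8.40 to 9.03 with DMSO. Plin4, a lipid droplet protein, rose with both agonists, by 0.65 ± 0.13 with GW610742 and 1.31 ± 0.26 with GW347845. Cidec, another, rose with GW610742, by 0.81 ± 0.27 (adjusted p = 0.0496, held in 4 of 12 fits that each left out 1 array), and read 1.32 ± 0.51 with GW347845 (adjusted p = 0.073). Adipoq, the hormone adiponectin, was not called with either and averaged 13.4 with GW610742 and 13.0 with DMSO in that set. Fabp4, a fatty acid binding protein that defines the cell type, had values only in the GW347845 set, where it rose, averaging 6.92 with GW347845 and 6.39 with DMSO. Lep, Lipe, Plin1 and Pparg were called with neither agonist, nor was Slc2a4, which had values only beside GW347845. In DMSO of the GW347845 set Slc2a4, Lipe, Plin1 and Lep averaged only 6.59, 6.93, 7.01 and 7.01. Pparg stood at 85.8% of the DMSO level with GW610742, and Lep read -0.12 with GW347845. Cebpa, Cfd and Retn had values in neither set. Of 8 macrophage markers only Cd14 was measured, and none of 5 endothelial markers. All 6 measured markers of proliferating cells rose with GW610742, where their mean level ran over 7.78 to 8.85 in the treated arrays, against 7.37 to 7.75 in the DMSO arrays. None of the 6 was called with GW347845, with 7.36 to 7.93 against 7.26 to 7.62. The mean level of the 10 fibroblast markers ran over 11.5 to 11.6 with GW610742 and 11.4 to 11.5 with DMSO, and over 11.1 to 11.3 with GW347845 and 11.2 to 11.3 with DMSO. Of these 10, S100a4 rose with GW610742, by 0.36 ± 0.064, and with GW347845 Col3a1 fell by 1.16 (adjusted p = 4.4e-07) and S100a4 by 0.71 (adjusted p = 4.3e-05). Dlk1, a marker of fat cell precursors among them, averaged 14.4 both with GW347845 and with DMSO in that set. It was called with neither agonist. The part of fibroblast-like cells in the results below was not tested. Of the PPAR target genes measured, 4 of 6 rose with GW610742 (Angptl4, Cidec, Pdk4 and Plin2) and 4 of 7 with GW347845, where Pdk4 fell. The 6 GW347845 arrays fell into replicates 1 to 3 and replicates 4 to 6, with a mean correlation of -0.64 between these subsets after the group mean was removed, against -0.19 for GW610742 and -0.39 for DMSO. Removing the mean of 6 arrays itself makes such correlations negative on average, so the GW610742 value is no sign of subsets. Within replicates 1 to 3 and 4 to 6 the mean correlations were 0.56 and 0.37 for GW347845. They were -0.23 and -0.16 for GW610742, and -0.0013 and 0.19 for DMSO in the GW347845 set. Values for both subsets of GW347845 arrays are given where they differ.

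GW610742 raised 6 of 159 members (3.77%) and lowered 17 (10.7%), where 8.26% of all 8289 genes rose and 8.69% fell. GW347845 raised 16 of 160 members (10.0%) and lowered 18 (11.3%), where 10.2% of all 8297 genes rose and 12.8% fell. The shares of members that fell with GW610742 and that moved either way with GW347845 lay near those of all genes and are not a result about the family. The median log2 fold change of the members was -0.019 with GW610742, beside -0.012 over all genes, and 0.019 with GW347845, beside 0.028. The median size of the change, sign aside, was 0.061 and 0.072 for members and all genes with GW610742 and 0.079 and 0.090 with GW347845. What follows is therefore about single members and their roles, and the class counts below are to be read beside these shares of all genes. Treated and DMSO arrays did not overlap for 8 called members with GW610742 (6.23% of all genes met this) and for 13 with GW347845 (11.1% of all genes). Of the called members, 12 of 23 kept the call in each of the 12 fits that left out 1 array with GW610742, and 19 of 34 with GW347845. With the dimmest probes left out, 27 of the 34 were measured and 26 stayed called, and all 23 with GW610742 did. The dimmest members called with GW347845 were Rnf125, Ube2j1, Usp2, Fbxo8, Rnf138, Usp14 and Fbxl5. They averaged 6.70 to 7.10 over the arrays of that set, where the median probe read 8.16. The plot of all members by class shows that the largest falls came with GW347845.

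**Figure D1:**
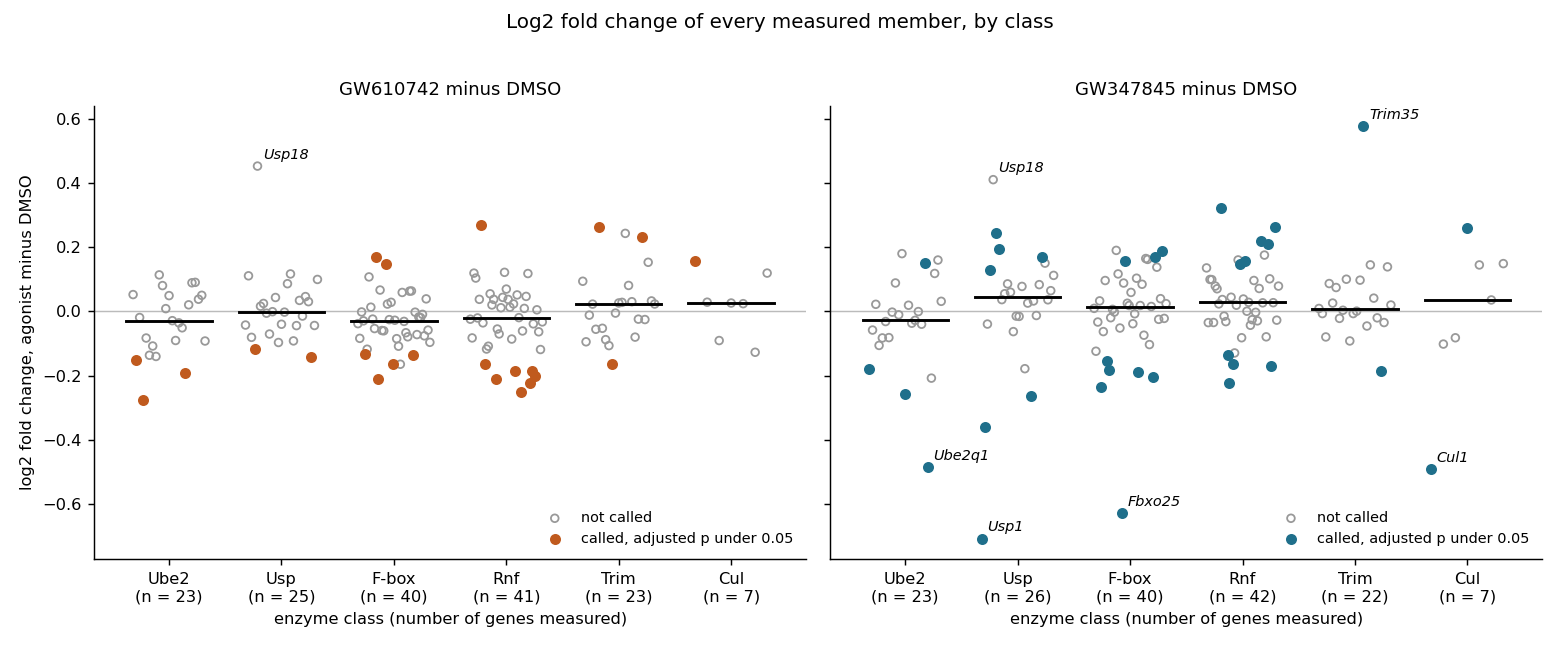
Log2 fold change of each measured member against DMSO with GW610742 (left) and GW347845 (right), by enzyme class, with filled points for called members and black lines for class medians. The deepest falls are Usp1, Fbxo25, Cul1 and Ube2q1 with GW347845, between -0.71 and -0.48, while no member fell by more than 0.28 with GW610742.

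Among the E2 enzymes, 3 of 23 fell and none rose with GW610742, and 3 fell and 1 rose with GW347845. Ube2d2a, a broadly used partner of RING ligases, had log2 values of 10.45, 10.51 and 10.64 in the GW610742 arrays (lowest, median and highest of 6), against 10.76, 10.79 and 10.89 in the DMSO arrays. The groups did not overlap, and the log2 fold change was -0.28 ± 0.045 (SE, n = 6 each, adjusted p = 0.00076, limma), or 82.6% of the DMSO level. It was the deepest fall of any member with this agonist. Ube2n, which builds lysine-63 chains together with the Ube2v1 variant, had 8.20, 8.27 and 8.38 with GW610742, against 8.35, 8.50 and 8.54 with DMSO (log2 fold change -0.19 ± 0.045, adjusted p = 0.00875). Ube2b, a Rad6 homolog that acts on histone H2B and PCNA, had 10.77, 10.93 and 11.00 with GW610742, against 10.93, 11.05 and 11.17 with DMSO (log2 fold change -0.15 ± 0.05, adjusted p = 0.046). The treated and DMSO ranges of both genes overlapped. The Ube2b call held in 4 of 12 leave-one-out fits, with an adjusted p of up to 0.108, and was lost without GW610742 replicate 1, 2, 5 or 6 or DMSO replicate 1, 4, 5 or 6. None of these 3 was called with GW347845, with -0.11 ± 0.047 for Ube2d2a, -0.04 ± 0.062 for Ube2n and -0.058 ± 0.056 for Ube2b.

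The E2 falls with GW347845 were in other members. Ube2q1, an E2 with a long extension before its catalytic domain, had 9.56, 9.77 and 9.84 with GW347845, against 10.07, 10.18 and 10.50 with DMSO, with every treated array below every DMSO array. Its log2 fold change was -0.48 ± 0.072 (adjusted p = 0.00014), 71.5% of the DMSO level, and its change with GW610742 was 0.089 ± 0.061 (adjusted p = 0.329). A second, dimmer Ube2q1 probe read 0.042 with GW347845 (adjusted p = 0.578), so the 2 probes did not move alike. Ube2q2, its relative, read -0.21 ± 0.075 with GW347845 and missed the threshold (adjusted p = 0.0565), while its second, dimmer probe fell by 0.29 (adjusted p = 0.00044). Ube2j1, the E2 anchored in the endoplasmic reticulum (ER) membrane that serves the removal of misfolded proteins there, had 6.52, 6.66 and 6.76 with GW347845, against 6.72, 6.94 and 6.99 with DMSO (log2 fold change -0.26 ± 0.057, adjusted p = 0.00398). Ube2a, the other Rad6 homolog, had 8.36, 8.56 and 8.65 with GW347845, against 8.61, 8.71 and 8.81 with DMSO (log2 fold change -0.18 ± 0.055, adjusted p = 0.0254), and lost its call without GW347845 replicate 1 or DMSO replicate 3, 5 or 6 (adjusted p up to 0.0616). The treated and DMSO ranges of Ube2j1 and Ube2a overlapped at their edges. Ube2o, a large enzyme that works as E2 and E3 in one chain, was the only E2 that rose, by 0.15 ± 0.051 (adjusted p = 0.0437), a call held in 3 of 12 leave-one-out fits. Among the E2 enzymes, the largest change not called with GW610742 was that of Ube2e3, at -0.14 (adjusted p = 0.0733). Of the E1 enzymes and ubiquitin genes that feed the E2 step, 7 of 15 listed were measured. Atg7, the E1 of the autophagy conjugates, fell by 0.15 with GW610742, a call lost without GW610742 replicate 2 or 5 or DMSO replicate 3, 4 or 5 (adjusted p up to 0.0693), and Uba6, the second E1 for ubiquitin, fell by 0.54 with GW347845 (adjusted p = 0.00246).

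Counting the brightest probe of each gene, the deubiquitinases showed the deepest fall of the family. Usp1, which with its cofactor takes ubiquitin off PCNA and FANCD2 in DNA repair, had 7.47, 7.57 and 7.72 with GW347845, against 8.16, 8.29 and 8.39 with DMSO. No treated array reached the lowest DMSO array, and the log2 fold change was -0.71 ± 0.055 (adjusted p = 4.4e-07), 61.2% of the DMSO level. Both of its other probes fell too, by 0.23 (adjusted p = 0.00394) and 0.26 (adjusted p = 0.00333). The brightest Usp1 probe read 8.20, 8.40 and 8.64 with GW610742, against 8.32, 8.45 and 8.56 with DMSO, and was not called (-0.042 ± 0.063), while the dimmest of the 3 fell by 0.21 (adjusted p = 0.0444). Usp14, which sits on the proteasome and trims chains from incoming substrates, had 6.69, 6.76 and 6.93 with GW347845, against 7.01, 7.13 and 7.30 with DMSO (log2 fold change -0.36 ± 0.06, adjusted p = 0.00038), again without overlap. Usp4, a deubiquitinase of TGF-β receptor signaling, had 8.88, 9.06 and 9.18 with GW347845, against 9.26, 9.30 and 9.36 with DMSO (log2 fold change -0.26 ± 0.054, adjusted p = 0.00243), and its second probe fell by 0.30. Its treated arrays all lay below its DMSO arrays. The Usp1, Usp14 and Usp4 calls held in each of the 12 leave-one-out fits.

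With GW347845, 4 of 26 Usp genes rose. Usp19, which has a form anchored in the ER membrane, had 8.67, 8.89 and 8.96 with GW347845, against 8.49, 8.60 and 8.67 with DMSO (log2 fold change 0.24 ± 0.056, adjusted p = 0.00508), and its call held in each leave-one-out fit. Usp2, a deubiquitinase with a daily rhythm in many tissues, had 6.69, 6.92 and 7.09 with GW347845, against 6.61, 6.70 and 6.81 with DMSO (log2 fold change 0.19 ± 0.063, adjusted p = 0.0358), and Usp47, which acts with DNA polymerase β in base excision repair, had 9.95, 10.02 and 10.33 with GW347845, against 9.84, 9.89 and 9.96 with DMSO (log2 fold change 0.17 ± 0.058, adjusted p = 0.0443). For all 3 the treated median lay above the highest DMSO array, while the ranges overlapped at the edge. The Usp2 and Usp47 calls held in 5 and 2 of 12 leave-one-out fits, with adjusted p up to 0.0826 and 0.0912. With GW610742 none of 25 Usp genes rose and 2 fell, Usp54 at -0.14 (adjusted p = 0.0328), held in 7 of 12 fits, and Usp16, described below. Usp18, which removes the interferon-induced modifier Isg15, showed the largest change of any member that was not called. It had 8.23, 8.88 and 9.72 with GW610742, against 7.85, 8.54 and 8.80 with DMSO (log2 fold change 0.45 ± 0.20, adjusted p = 0.116) and 7.76, 8.54 and 10.23 with GW347845, against 7.70, 8.37 and 8.63 with DMSO (log2 fold change 0.41 ± 0.33, adjusted p = 0.386). Treated and DMSO arrays overlapped with both agonists. Its GW347845 values split by subset, with differences of -0.23 over replicates 1 to 3 and 1.05 over replicates 4 to 6. Leaving out GW610742 replicate 4 brought the GW610742 change under the threshold, at an adjusted p of 0.0375. Trim25, another interferon-induced member, rose with GW610742, while Trim21 and Ube2l6, the remaining 2 of the 4 listed, were not called and lay between -0.051 and 0.087 with both agonists.

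**Figure D2:**
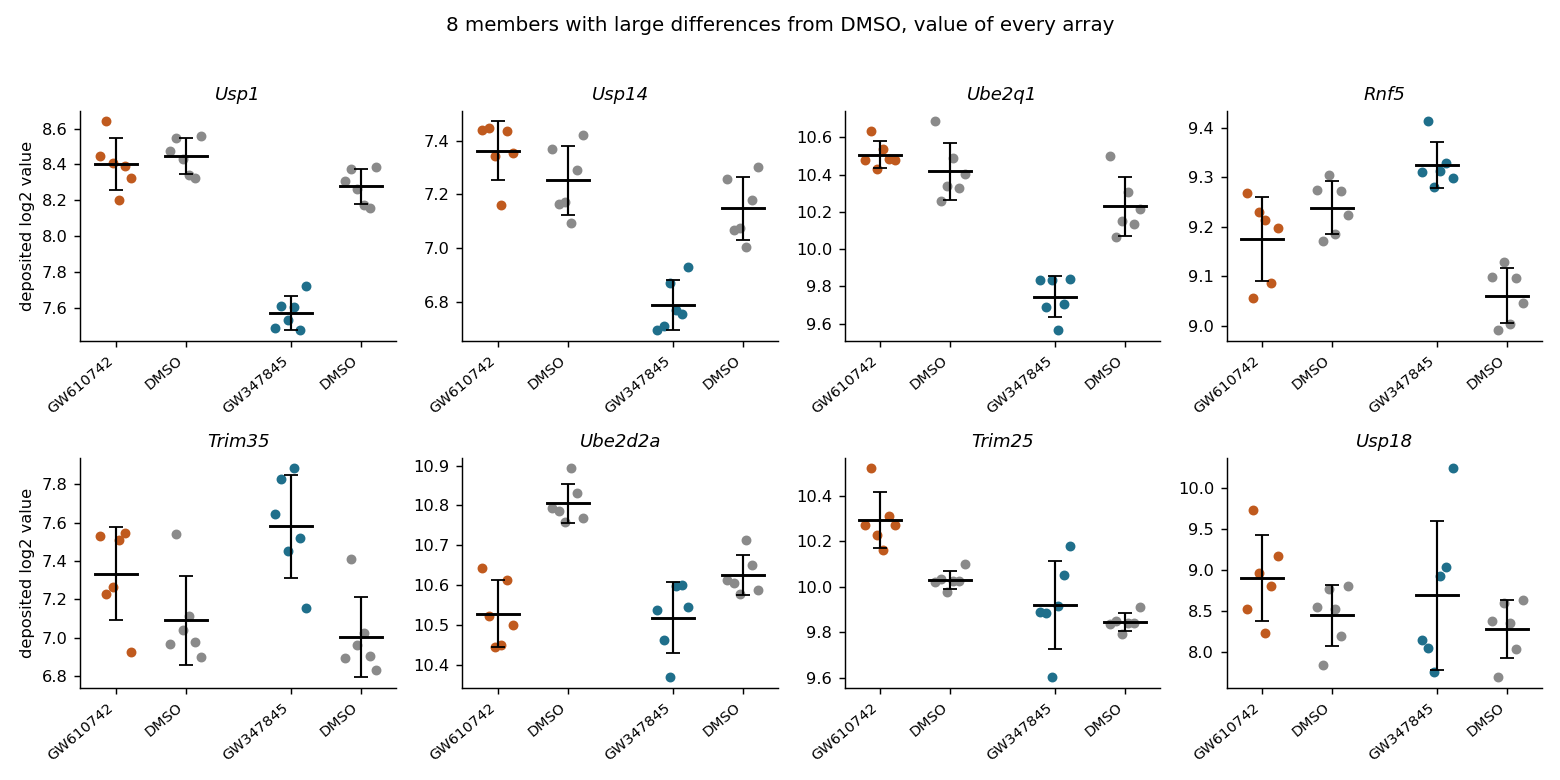
Deposited log2 values of 8 members in every array, with treated arrays left of the DMSO arrays of their own set, black bars for the mean and error bars for the SD (n = 6). Usp1, Usp14 and Ube2q1 lie lower and Rnf5 higher in all GW347845 arrays than in their DMSO arrays, Ube2d2a is lower in all GW610742 arrays, and Usp18 spreads over 7.76 to 10.2 with GW347845; DMSO values differ between sets because the sets were normalized separately.

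Deubiquitinases of other families were counted from a separate list. With GW610742, 2 of 28 rose (7.14%) and none fell, where 8.26% of all genes rose and 8.69% fell. With GW347845 6 rose and 5 fell (21.4% and 17.9%), where 10.2% and 12.8% of all genes did. The 6 that rose were Josd1, Otub1, Otud4, Zranb1, Otud3 and Senp5, and the 5 that fell were Psmd14, Uchl5, Otud5, Brcc3 and Otud6b. Psmd14, the proteasome lid enzyme that cuts whole chains from substrates, had 9.07, 9.22 and 9.59 with GW347845, against 9.63, 9.67 and 9.91 with DMSO (log2 fold change -0.46 ± 0.077, adjusted p = 0.00044). Uchl5, the third deubiquitinase that binds the proteasome, had 8.98, 9.24 and 9.44 with GW347845, against 9.57, 9.64 and 9.79 with DMSO (log2 fold change -0.43 ± 0.07, adjusted p = 0.00034). Psmd14, Uchl5 and Usp14 thus all fell with GW347845 without overlap of treated and DMSO arrays, a grouping made after their values were seen. With GW610742 Psmd14 rose by 0.25 ± 0.057 (adjusted p = 0.007), and Usp14 read 0.11 ± 0.061 (adjusted p = 0.22). Otud6b fell by 0.35 with GW347845 (adjusted p = 3e-05). Usp5, which takes apart free chains, was not called with either agonist, at 0.15 (adjusted p = 0.0567) with GW347845.

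Of the 7 cullins, Cul1 changed with both agonists and in opposite directions. It had 8.97, 9.17 and 9.34 with GW347845, against 9.50, 9.68 and 9.74 with DMSO (log2 fold change -0.49 ± 0.071, adjusted p = 0.00011), without overlap, and 9.86, 9.97 and 10.16 with GW610742, against 9.68, 9.86 and 9.93 with DMSO (log2 fold change 0.16 ± 0.053, adjusted p = 0.0499). The fall with GW347845 held in each leave-one-out fit, but the rise with GW610742 was of overlapping groups and held only without GW610742 replicate 3, with an adjusted p of up to 0.116 in the others. The second Cul1 probe was not called, at 0.085 with GW347845 (adjusted p = 0.238) and -0.065 with GW610742 (adjusted p = 0.432). Cul4a, scaffold of the Ddb1 ligases, had 10.30, 10.46 and 10.77 with GW347845, against 10.10, 10.24 and 10.35 with DMSO (log2 fold change 0.26 ± 0.08, adjusted p = 0.0273), with differences of 0.11 over replicates 1 to 3 and 0.42 over replicates 4 to 6. Its call was lost without GW347845 replicate 4 or 5 or DMSO replicate 3, 4 or 6 (adjusted p up to 0.0614). The other 5 were called with neither. Cul2, scaffold of the Vhl ligase, read 0.029 ± 0.043 with GW610742 and -0.10 ± 0.042 with GW347845. Cul3, which binds BTB proteins, read -0.091 ± 0.067 and -0.082 ± 0.048, Cul4b 0.024 ± 0.062 and 0.14 ± 0.064, Cul5, which binds SOCS proteins, -0.13 ± 0.056 and 0.036 ± 0.077, and Cul7 0.12 ± 0.048 and 0.15 ± 0.057, in the same order of agonists.

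The proteins that complete cullin ligases were taken from a list of 31 genes, of which 22 were measured. With GW347845, 5 fell and 2 rose (22.7% and 9.09%), where 12.8% of all genes fell and 10.2% rose. With GW610742 1 fell and 1 rose (4.55% each), where 8.69% and 8.26% of all genes did. Skp1, the adaptor that joins F-box proteins to Cul1, had 8.27, 8.76 and 9.08 with GW347845, against 9.27, 9.49 and 9.68 with DMSO (log2 fold change -0.77 ± 0.13, adjusted p = 0.00046), 58.6% of the DMSO level and without overlap. Rbx1, the RING subunit at the other end of the scaffold, had 12.49, 12.67 and 12.82 with GW347845, against 12.91, 13.01 and 13.09 with DMSO (log2 fold change -0.34 ± 0.053, adjusted p = 0.00021), also without overlap. Vhl, the receptor of the Cul2 ligase that takes HIF to the proteasome, had 6.87, 7.02 and 7.28 with GW347845, against 7.71, 7.91 and 7.98 with DMSO (log2 fold change -0.85 ± 0.07, adjusted p = 6.6e-07), or 55.5% of the DMSO level and without overlap. Crbn, a Cul4 receptor, fell by 0.40 (adjusted p = 3e-05) and Dcaf11, another, by 0.24 (adjusted p = 0.00768). Ddb1, the Cul4 adaptor, rose by 0.35 ± 0.082 (adjusted p = 0.00586) and Ambra1, a Cul4 receptor of D cyclins, by 0.26 ± 0.06 (adjusted p = 0.00535). Skp1 and Dcaf11 were chosen after their values were seen. With GW610742 Eloc, an adaptor of Cul2 and Cul5, fell by 0.22 (adjusted p = 0.00834), and Dcun1d5, which helps to put the activating tag on cullins, rose by 0.23 ± 0.065 (adjusted p = 0.0224), a call lost without GW610742 replicate 1. None of Skp1, Rbx1, Vhl, Crbn and Ddb1 was called with GW610742, with log2 fold changes of 0.09, 0.0051, 0.11, -0.062 and 0.11. The agonists differed for Skp1 (GW610742 minus GW347845, 0.86 ± 0.13, adjusted p = 0.00015), Rbx1 (0.35 ± 0.053, adjusted p = 0.00013), Vhl (0.96 ± 0.07, adjusted p = 1.3e-07) and Crbn (0.34 ± 0.057, adjusted p = 0.0003), while the difference for Ddb1 missed the threshold (-0.24 ± 0.089, adjusted p = 0.0558). Of 9 measured subunits of the COP9 signalosome, which takes the activating tag off cullins, none was called with GW610742 and 1, Cops7a, rose with GW347845, by 0.12 ± 0.039 (adjusted p = 0.0408, held in 3 of 12 leave-one-out fits).

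**Figure D3:**
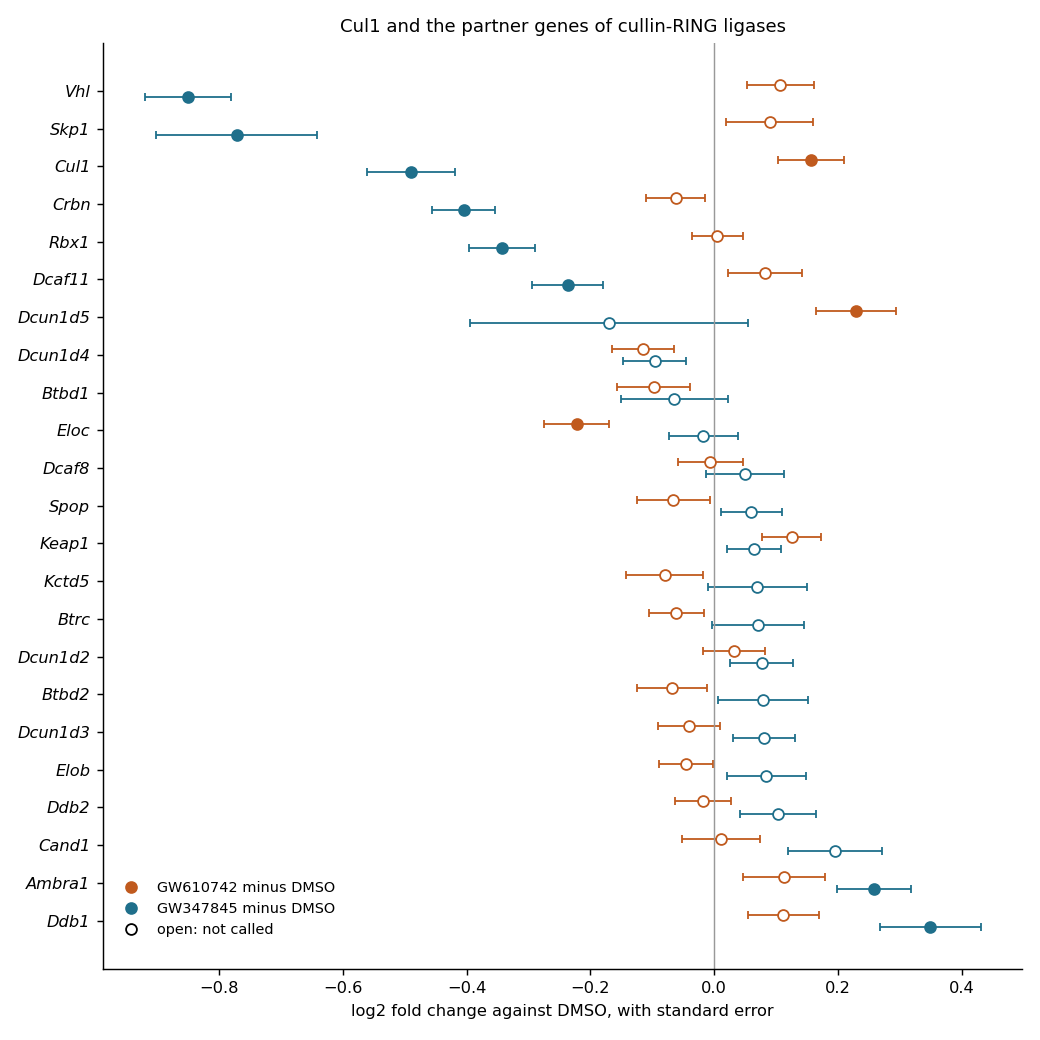
Log2 fold change (x axis) with standard error of Cul1 and the 22 measured partner genes of cullin ligases (y axis), with GW610742 above GW347845 for each gene and filled points for called changes. Vhl, Skp1, Cul1, Crbn, Rbx1 and Dcaf11 lie left of 0 with GW347845, while Cul1 and Dcun1d5 are the 2 genes that rose with GW610742.

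F-box genes were called 6 times with GW610742, 2 up and 4 down, and 9 times with GW347845, 3 up and 6 down, of 40 genes. Fbxo25, a nuclear F-box protein, was lower in every GW347845 array than in any DMSO array, with 9.23, 9.37 and 9.53 with GW347845, against 9.91, 9.98 and 10.15 with DMSO (log2 fold change -0.63 ± 0.059, adjusted p = 1.9e-06), or 64.6% of the DMSO level. It also had 10.30, 10.34 and 10.43 with GW610742, against 10.10, 10.17 and 10.34 with DMSO (log2 fold change 0.15 ± 0.048, adjusted p = 0.0425). That rise was of overlapping groups and held in 3 of 12 leave-one-out fits, those without GW610742 replicate 6 or DMSO replicate 1 or 5, with an adjusted p of up to 0.0902. Fbxl17, which clears wrongly paired BTB proteins, was lower with both agonists. It had 9.95, 10.03 and 10.16 with GW347845, against 10.20, 10.27 and 10.44 with DMSO (log2 fold change -0.23 ± 0.05, adjusted p = 0.00297), without overlap, and 10.31, 10.32 and 10.42 with GW610742, against 10.39, 10.45 and 10.63 with DMSO (log2 fold change -0.13 ± 0.044, adjusted p = 0.0461). Its fall with GW610742 held in 2 of 12 leave-one-out fits, those without GW610742 replicate 6 or DMSO replicate 5.

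Other F-box calls with GW347845 were smaller. Fbxl5, the iron sensor that directs the removal of iron regulatory protein, had 6.91, 7.00 and 7.11 with GW347845, against 7.11, 7.18 and 7.28 with DMSO (log2 fold change -0.18 ± 0.046, adjusted p = 0.0106), without overlap, and Fbxl4, a mitochondrial F-box protein that holds mitophagy back, had 8.55, 8.61 and 8.65 with GW347845, against 8.64, 8.78 and 8.82 with DMSO (log2 fold change -0.16 ± 0.041, adjusted p = 0.0128). Both calls held in each leave-one-out fit, and both genes were chosen after their values were seen. Fbxo8, which carries a Sec7 domain, fell by 0.21 (adjusted p = 0.0225), a call lost without GW347845 replicate 2 or DMSO replicate 1 or 5 (adjusted p up to 0.0553), and Fbxo38 by 0.19 (adjusted p = 0.0344), held in 4 of 12 fits. The second Fbxo38 probe went the other way, at 0.16 (adjusted p = 0.0548), and was not called. Fbxw5, a substrate receptor in centriole duplication, rose by 0.19 ± 0.058 (adjusted p = 0.0292), Fbxo9 by 0.17 ± 0.053 (adjusted p = 0.0306) and Fbxo3 by 0.16 ± 0.053 (adjusted p = 0.0431), calls held in 5, 5 and 4 of 12 fits. Fbxo31, a receptor tied to cyclin D1, had 7.29, 7.38 and 7.43 with GW610742, against 7.48, 7.54 and 7.58 with DMSO (log2 fold change -0.16 ± 0.039, adjusted p = 0.00874) and Fbxl8 had 7.84, 7.92 and 7.98 with GW610742, against 7.69, 7.75 and 7.81 with DMSO (log2 fold change 0.17 ± 0.039, adjusted p = 0.00746), both without overlap and both held in each fit. Fbxo10 fell by 0.21 (adjusted p = 0.0323) and Fbxo6, which reads sugar chains on misfolded glycoproteins, by 0.13 (adjusted p = 0.0318), held in 4 and 5 of 12 fits. Fbxo2, the other sugar reader, was not called with either agonist, at 0.067 (adjusted p = 0.417) and, with GW347845, 0.19 (adjusted p = 0.117). Fbxo32, the muscle atrophy ligase atrogin-1, read -0.028 with GW610742 and 0.059 with GW347845 and was not called.

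Of the RING ligases of the Rnf family, 7 fell and 1 rose among 41 genes with GW610742, and 6 rose and 4 fell among 42 with GW347845. Rnf34, which in brown fat marks the coactivator PGC-1α for removal, had 10.09, 10.20 and 10.24 with GW610742, against 10.25, 10.43 and 10.50 with DMSO (log2 fold change -0.22 ± 0.046, adjusted p = 0.00403), without overlap. Rnf215 had 8.19, 8.35 and 8.46 with GW610742, against 8.43, 8.58 and 8.75 with DMSO (log2 fold change -0.25 ± 0.057, adjusted p = 0.007), and its ranges overlapped at the edge. Rnf19a, which joins RING and HECT-like chemistry in one protein, had 10.18, 10.30 and 10.41 with GW610742, against 10.43, 10.49 and 10.54 with DMSO (log2 fold change -0.19 ± 0.045, adjusted p = 0.00988), without overlap. The calls of these 3 held in each leave-one-out fit, and Rnf19a was chosen after its values were seen. Rnf121, a membrane protein of the Golgi and ER, was the one that rose, with 7.67, 7.78 and 7.87 with GW610742, against 7.40, 7.50 and 7.63 with DMSO (log2 fold change 0.27 ± 0.05, adjusted p = 0.00183). Its other 2 probes read -0.063 and -0.083 with GW610742 and were not called. On the probe that rose with GW610742, GW347845 gave -0.17 (adjusted p = 0.0156), while the probe that is brightest in the GW347845 set read 0.071 ± 0.061 (adjusted p = 0.432).

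Rnf5, a ligase of the ER membrane that removes misfolded membrane proteins, had 9.28, 9.31 and 9.41 with GW347845, against 8.99, 9.07 and 9.13 with DMSO (log2 fold change 0.26 ± 0.041, adjusted p = 0.0002), with every treated array above every DMSO array. Rnf125, a small membrane-tethered ligase, had 6.59, 6.79 and 7.19 with GW347845, against 6.41, 6.53 and 6.64 with DMSO (log2 fold change 0.32 ± 0.10, adjusted p = 0.0254), with differences of 0.56 over replicates 1 to 3 and 0.084 over replicates 4 to 6, and lost its call without GW347845 replicate 2 or 3 or DMSO replicate 2 (adjusted p up to 0.0525). Rnf25 and Rnf14 act together on stalled ribosomes in human cells and went apart here. Rnf25 rose by 0.22 ± 0.076 (adjusted p = 0.0464), a call held in 3 of 12 leave-one-out fits, and Rnf14 had 10.94, 11.06 and 11.20 with GW347845, against 11.16, 11.30 and 11.39 with DMSO (log2 fold change -0.22 ± 0.059, adjusted p = 0.0125), held in each fit. Rnf138, which prepares broken DNA ends for repair, fell by 0.14 (adjusted p = 0.0251), without overlap, and lost its call without GW347845 replicate 3 or DMSO replicate 1 or 6 (adjusted p up to 0.0625). Rnf167 and Rnf170, chosen after their values were seen, rose by 0.15 ± 0.039 (adjusted p = 0.0121) and 0.16 ± 0.045 (adjusted p = 0.0193), both without overlap. Rnf170 directs the removal of activated inositol trisphosphate receptors, and Rnf167 works at endosomes and lysosomes.

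A pair of Rnf genes fell with both agonists. Rnf41, which limits the growth factor receptor ErbB3, had 7.28, 7.36 and 7.55 with GW610742, against 7.47, 7.58 and 7.68 with DMSO (log2 fold change -0.20 ± 0.051, adjusted p = 0.0135) and 7.19, 7.29 and 7.33 with GW347845, against 7.35, 7.44 and 7.54 with DMSO (log2 fold change -0.17 ± 0.046, adjusted p = 0.0147). Rnf144a had 8.09, 8.26 and 8.35 with GW610742, against 8.38, 8.49 and 8.53 with DMSO (log2 fold change -0.21 ± 0.047, adjusted p = 0.0065) and 8.04, 8.13 and 8.24 with GW347845, against 8.22, 8.32 and 8.36 with DMSO (log2 fold change -0.16 ± 0.047, adjusted p = 0.0183). The groups did not overlap for Rnf41 with GW347845 and for Rnf144a with GW610742, and overlapped in the other comparison of each. These 4 calls held in each of their 12 leave-one-out fits. Together with Fbxl17 they were the members called down with both agonists, and no member was called up with both. The 2 comparisons use the same 6 DMSO hybridizations, so a high or low control moves both.

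Trim genes, mostly RING ligases with a coiled coil, were called 3 times of 23 with GW610742 and 2 times of 22 with GW347845. Trim35 had 7.15, 7.58 and 7.88 with GW347845, against 6.83, 6.93 and 7.41 with DMSO (log2 fold change 0.58 ± 0.12, adjusted p = 0.0022), the largest rise of any member, at 149% of the DMSO level. Its groups overlapped through DMSO replicate 2, which read 7.41, and its call held in each leave-one-out fit. The second Trim35 probe read 0.066 (adjusted p = 0.442). Trim35 also had 6.93, 7.39 and 7.55 with GW610742, against 6.90, 7.01 and 7.54 with DMSO (log2 fold change 0.24 ± 0.11, adjusted p = 0.123), and came under the threshold without DMSO replicate 2 or GW610742 replicate 6, at adjusted p values down to 0.0188. Trim25, which activates the viral RNA sensor RIG-I, had 10.16, 10.27 and 10.52 with GW610742, against 9.98, 10.02 and 10.10 with DMSO (log2 fold change 0.26 ± 0.051, adjusted p = 0.00261), without overlap and held in each leave-one-out fit. With GW347845 it read 0.075 ± 0.073 (adjusted p = 0.49). Trim3 fell with GW610742, by 0.16 (adjusted p = 0.0223), and lost its call without GW610742 replicate 1 (adjusted p = 0.0531). Trim28, the corepressor of KRAB zinc finger proteins, was called with neither agonist, at -0.11 (adjusted p = 0.108) and, with GW347845, 0.10 (adjusted p = 0.344).

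The members called in opposite directions with the 2 agonists numbered 5, 3 higher with GW610742 and lower with GW347845 (Fbxo25, Cul1 and Trim47) and 2 the other way (Rnf4 and Usp16). Trim47 had 8.11, 8.27 and 8.38 with GW610742, against 7.93, 8.01 and 8.15 with DMSO (log2 fold change 0.23 ± 0.055, adjusted p = 0.00899) and 7.57, 7.70 and 7.77 with GW347845, against 7.77, 7.85 and 7.98 with DMSO (log2 fold change -0.19 ± 0.053, adjusted p = 0.0201), and both calls held in each leave-one-out fit, although treated and DMSO arrays met at the edge. Rnf4, which puts ubiquitin on proteins that carry SUMO chains, had 8.52, 8.63 and 8.73 with GW610742, against 8.58, 8.86 and 8.94 with DMSO (log2 fold change -0.18 ± 0.06, adjusted p = 0.0411) and 8.69, 8.83 and 9.06 with GW347845, against 8.41, 8.68 and 8.77 with DMSO (log2 fold change 0.21 ± 0.071, adjusted p = 0.0445). Its calls held in 5 of 12 fits with GW610742, those without GW610742 replicate 2, 4 or 6 or DMSO replicate 1 or 3, and in 4 with GW347845, those without GW347845 replicate 2 or 3 or DMSO replicate 2 or 6. Usp16, which takes ubiquitin off histone H2A, had 8.29, 8.32 and 8.43 with GW610742, against 8.42, 8.44 and 8.50 with DMSO (log2 fold change -0.12 ± 0.038, adjusted p = 0.0422) and 8.29, 8.43 and 8.55 with GW347845, against 8.26, 8.28 and 8.33 with DMSO (log2 fold change 0.13 ± 0.045, adjusted p = 0.0494). Its fall held only without GW610742 replicate 6 and its rise only without GW347845 replicate 2 or 3, with adjusted p up to 0.0806 and 0.0933 in the other fits. For Rnf4 the second probe was called with neither agonist, at -0.067 and 0.017. The plot of these members by array shows the 4 groups side by side.

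**Figure D4:**
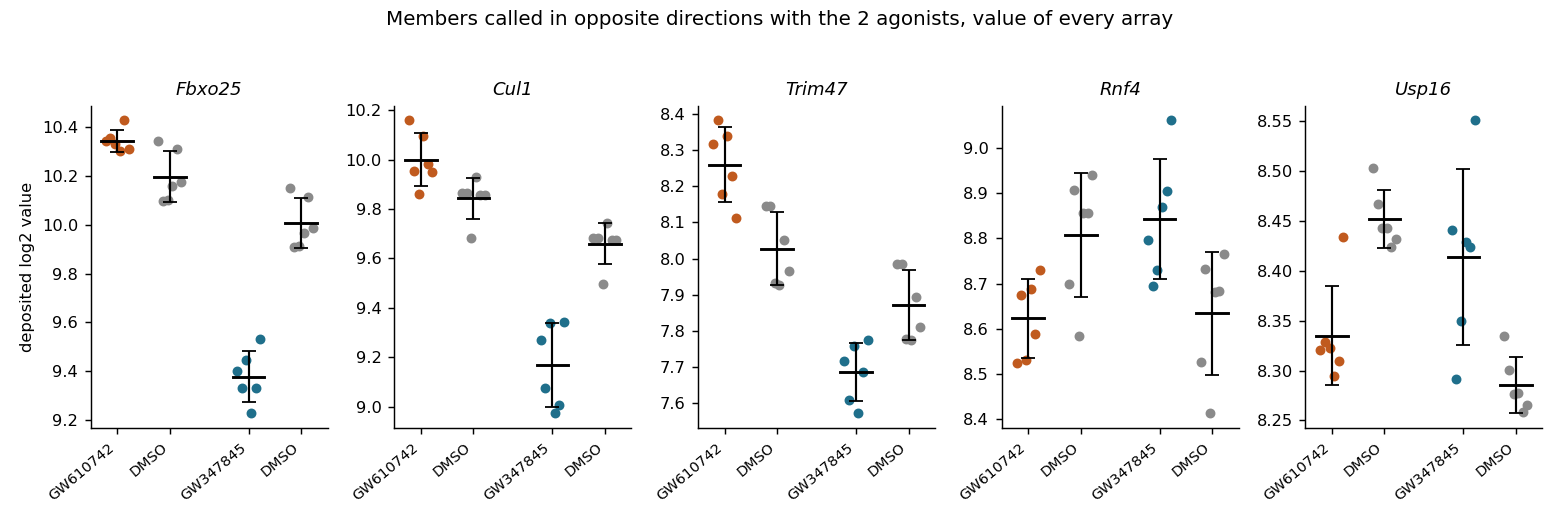
Deposited log2 values of Fbxo25, Cul1, Trim47, Rnf4 and Usp16 in every array, with each agonist left of the DMSO arrays of its own set, black bars for means and error bars for SD (n = 6). Fbxo25 and Cul1 separate fully from DMSO with GW347845 (9.53 at most for Fbxo25, against 9.91 at least with DMSO), while every other pair of groups touches or overlaps.

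The difference between the agonists was tested itself, on treated arrays minus the mean of the DMSO arrays of their set, which leaves out the spread of the controls. Of 158 members, 18 were higher and 17 lower with GW610742 than with GW347845 (11.4% and 10.8%), where 13.8% of all 8197 genes were higher and 14.0% lower. The largest differences were those of Fbxo25 (0.78 ± 0.051, adjusted p = 6.1e-08), Usp1 (0.67 ± 0.066, adjusted p = 2e-06), Cul1 (0.65 ± 0.075, adjusted p = 8e-06) and Ube2q1 (0.57 ± 0.055, adjusted p = 1.4e-06). Usp14 (0.47 ± 0.058, adjusted p = 1.6e-05), Rnf121 on the probe brightest with GW610742 (0.44 ± 0.049, adjusted p = 5.5e-06), Trim47 (0.42 ± 0.055, adjusted p = 3.1e-05) and Ube2j1 (0.31 ± 0.052, adjusted p = 0.0004) followed. Lower with GW610742 were Rnf4 (-0.39 ± 0.063, adjusted p = 0.00021), Rnf5 (-0.33 ± 0.046, adjusted p = 6.4e-05), Usp16 (-0.25 ± 0.047, adjusted p = 0.0011), Usp19 (-0.23 ± 0.057, adjusted p = 0.00775) and Cul4a (-0.24 ± 0.077, adjusted p = 0.0326). The Cul4a difference was lost without GW610742 replicate 1, 2 or 6 or GW347845 replicate 4 or 5 (adjusted p up to 0.0715), and the other 12 held in each of 18 leave-one-out fits. Fbxo36 differed (-0.27 ± 0.075, adjusted p = 0.0151) although it was called with neither agonist, at -0.16 with GW610742 and 0.10 with GW347845, and so did Rnf168, which marks histone H2A at DNA breaks (0.20 ± 0.047, adjusted p = 0.00451), and Usp37, a deubiquitinase of cyclin A (0.26 ± 0.087, adjusted p = 0.0331). The Usp37 difference was lost without GW610742 replicate 1, 2, 3 or 5 or GW347845 replicate 6 (adjusted p up to 0.0696), while those of Fbxo36 and Rnf168 held in each fit. Of 39 members called with 1 agonist alone and measured with both, 16 did not pass this test, among them Trim25, Trim35, Usp4, Fbxl8 and Ube2n, so their changes with the 2 agonists were not shown to differ.

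**Figure D5:**
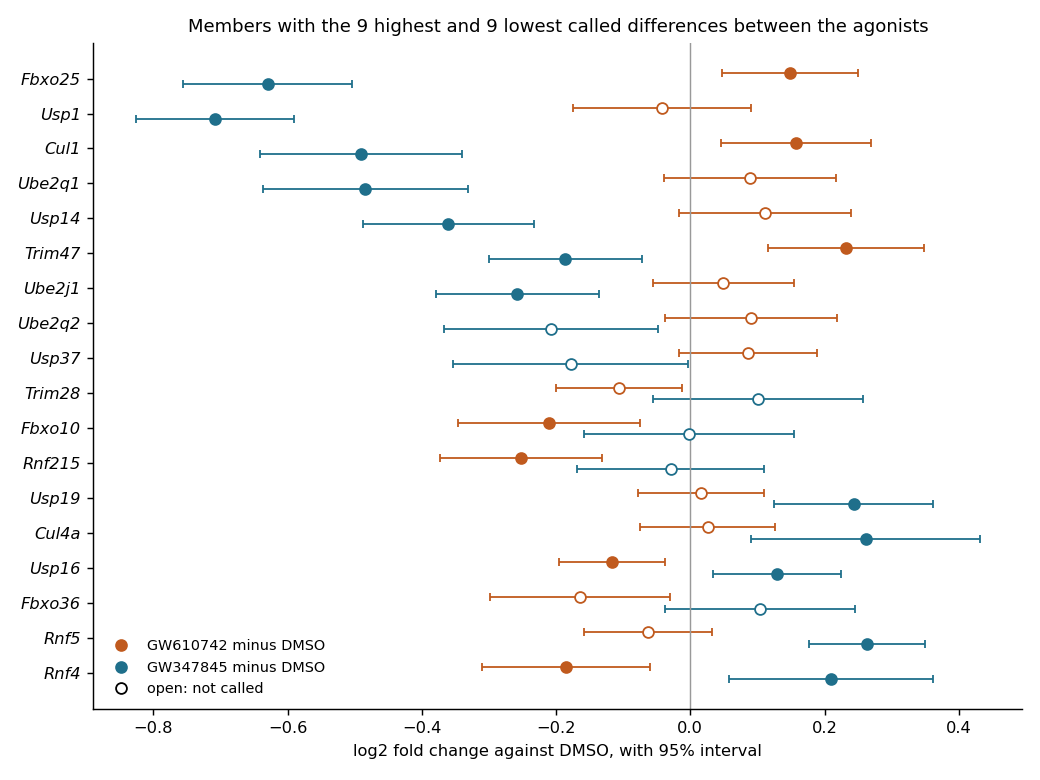
Log2 fold change against DMSO with its 95% interval (x axis) for the 9 members with the highest and the 9 with the lowest called difference between the agonists, among those with the same brightest probe in both sets (y axis), GW610742 above GW347845, with filled points for calls. From Fbxo25 to Usp37 the GW610742 value lies to the right, and from Trim28 to Rnf4 to the left.

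By cell function, the members of each role were few and their calls scattered. Over all genes, 8.26% rose and 8.69% fell with GW610742, and 10.2% rose and 12.8% fell with GW347845. Of 9 measured members of ER-associated degradation, Rnf5 and Usp19 rose and Ube2j1 fell with GW347845, and Fbxo6 fell with GW610742. Rnf170, named above for the removal of inositol trisphosphate receptors, also rose with GW347845 but was not counted in this role. Of 10 members that write or erase histone ubiquitin, Ube2b and Usp16 fell with GW610742, and with GW347845 Usp16 rose and Ube2a fell. Of 6 members tied to the cell cycle, Rnf4 and Usp16 fell and none rose with GW610742, and the same 2 members rose and none fell with GW347845. Each of these calls was lost in most leave-one-out fits, as given above. Fbxo31 and Fbxw5, tied above to cyclin D1 and to centriole duplication, were not counted in this role. All 6 measured proliferation markers rose with GW610742, and none was called with GW347845. Whether the 2 members are related to these markers was not tested. Ube2s, the E2 that extends chains for the anaphase promoting complex, read 0.038 with GW610742 (adjusted p = 0.637). In the list of that complex and its regulators, 3 of 13 rose with GW610742 (Bub1b, Cdc20 and Mad2l1, the checkpoint and activator genes) and Anapc16 fell. The part of proliferating cells in these values was not tested.

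Ligases outside the chosen families were counted from separate lists. Of HECT ligases, which carry ubiquitin on their own cysteine, 5 of 16 rose (31%) and none fell with GW610742, where 8.26% of all genes rose and 8.69% fell. With GW347845 3 rose and 4 fell of 17 (17.6% and 23.5%), where 10.2% and 12.8% of all genes did. Huwe1, a giant ligase with many targets, had 7.83, 7.96 and 8.03 with GW610742, against 7.41, 7.55 and 7.65 with DMSO (log2 fold change 0.42 ± 0.049, adjusted p = 7.3e-05) and 6.72, 6.80 and 7.15 with GW347845, against 7.29, 7.42 and 7.51 with DMSO (log2 fold change -0.54 ± 0.069, adjusted p = 3.6e-05). Ube3a, the ligase of Angelman syndrome, rose by 0.28 ± 0.038 with GW610742 (adjusted p = 0.00019) and fell by 0.18 with GW347845 (adjusted p = 0.0196), a value chosen after it was seen. Treated and DMSO arrays of Huwe1 did not overlap with either agonist. The difference between the agonists was called for Huwe1 (0.96 ± 0.068, adjusted p = 1.1e-07) and Ube3a (0.46 ± 0.05, adjusted p = 4.4e-06). Nedd4l, which clears the epithelial sodium channel, rose with both agonists, by 0.15 ± 0.041 with GW610742 (adjusted p = 0.0204, chosen after it was seen) and 0.41 ± 0.077 with GW347845 (adjusted p = 0.00115). Among other RING and U-box ligases, 6 of 50 rose and 2 fell with GW610742 (12% and 4%), and 6 of 51 rose and 8 fell with GW347845 (11.8% and 15.7%), to be read beside the same shares of all genes. Those that rose with GW347845 were Uhrf2, Dtx2, Ube4b, Vps41, Marchf6 and Rfwd3, and those that fell with GW610742 were Birc2 and Vps41. Uhrf2 rose with both agonists. Rchy1, a ligase of p53, fell by 0.85 with GW347845 (adjusted p = 3.7e-06), and Cblb, a brake on receptor tyrosine kinases, fell by 0.42 with GW347845 (adjusted p = 3.7e-05) and rose by 0.24 ± 0.055 with GW610742 (adjusted p = 0.00797). Uhrf1, which copies DNA methylation at replication, rose by 0.61 ± 0.12 with GW610742 (adjusted p = 0.00267). Of 12 measured ubiquitin-like modifiers, Ubd, an inducible modifier that sends proteins to the proteasome, rose by 1.03 ± 0.19 with GW610742 (adjusted p = 0.00204). With GW347845 Ubd read 1.13 ± 0.43 and was not called (adjusted p = 0.0677), and the difference between the agonists was not called either (-0.10 ± 0.43, adjusted p = 0.88). Of the same 12, Map1lc3b, the autophagosome marker LC3B, rose by 0.21 ± 0.058 with GW610742 (adjusted p = 0.0194) and fell by 0.57 with GW347845 (adjusted p = 2.7e-05). These were the 2 rises of the 12 with GW610742 (16.7%), beside 2 falls, Gabarapl1 and Sumo3 (16.7%). With GW347845 none rose and Map1lc3b alone fell (8.33%). Gabarapl1 went the other way from Map1lc3b, with a difference between the agonists of -0.26 ± 0.06 (adjusted p = 0.0045, limma), as did Sumo3 at -0.26 ± 0.082 (adjusted p = 0.026).

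Where a member had more than 1 probe, the others seldom passed the test with it. Of the 23 members called with GW610742, 7 had further probes, and none of these was called. The second probes of Fbxo31, Trim3 and Ube2n, which fell, read 0.0043, 0.014 and 0.061, while those of Rnf4 and Rnf41 were also negative. Of the 15 such members called with GW347845, 3 had another probe called the same way (Usp1, Usp4 and Usp47) and none the opposite way. Not called but opposite in sign were the second probes of Cul1, Ube2q1, Fbxo38 and Rnf14, the last at 0.038. The other Rnf167 probes ran from -0.086 to 0.052. A further 7 members with GW610742 and 13 with GW347845 were not called on their brightest probe although another probe was. Among the 13, another Rnf11 probe fell by 0.76 (adjusted p = 0.00049), deeper than Usp1, while the brightest Rnf11 probe read 0.10. Other probes of Ube2d3, Fbxo4 and Rnf6 fell by 0.44, 0.33 and 0.33. Such probes of Rnf10, Trim27 and Usp36 rose, and those of the remaining members among the 13 fell. Probe sequences were not used here, so whether probes of near-identical relatives read each other's transcripts was not examined. Agreement between probes was counted for members only. Genes of the separate lists, such as Vhl, Rchy1, Skp1, Huwe1 and Map1lc3b, are given on their brightest probe alone. Some were dim, with means over the GW347845 arrays of 6.65 for Otud6b and 6.86 for Huwe1, where the median probe of that set read 8.16.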

How the data were processed

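RNA of 3T3-L1 adipocytes was hybridized to Illumina mouse WG-6 arrays, 6 per treatment. The authors deposited log2 values after a variance stabilizing transformation and quantile normalization (lumi), for probes detected at p = 0.01 in at least 1 sample, as 2 sets of 12 arrays that share the 6 DMSO hybridizations. Of 13964 probes, 12157 had 1 gene symbol in the platform annotation. Here each set was fitted probe by probe in limma 3.58.1 (R 4.3.3, lmFit and eBayes), agonist against DMSO, with p adjusted by Benjamini-Hochberg across every probe in its set and calls at an adjusted p under 0.05. Each gene was represented by its brightest probe (mean of 12 arrays). The agonists were compared on each treated array minus the mean of its DMSO arrays. The number of arrays limits the precision. Members and lists were chosen with earlier results of these data known. Named were, per agonist and class, the 4 largest called rises and falls and the largest change not called, every cullin, the 10 largest called differences between agonists in each direction, members called with both agonists and up to 3 genes per list and direction. Genes beyond this rule were named by role after their values were seen. Alternatives covered adjustment, test, weights, scaling, probe choice, replicate blocks and single arrays.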

Additional observations from a re-analysis of the deposited data

Results flagged for a closer look

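Among 228 groups of 6 arrays of named members, 20 had 1 array whose gap to its nearest neighbor exceeded Dixon's 95% limit for the share of the group's range, which chance gives in about 1 in 20 groups. Because the DMSO hybridizations are shared, 12 of these 20 are 6 DMSO values seen in both normalizations. The value in the GW610742 set is given before that in the GW347845 set. DMSO replicate 2 was highest for Fbxl17 (10.63 and 10.44) and Trim35 (7.54 and 7.41) and lowest for Fbxo2 (10.66 and 10.48) and Fbxo36 (8.42 and 8.25). DMSO replicate 3 was lowest for Cul1 (9.68 and 9.50) and Ube2j1 (6.80 and 6.72). Among the GW610742 arrays, replicate 6 was highest for Fbxl17 (10.42), Rnf41 (7.55) and Usp16 (8.43), replicate 5 was highest for Ube2a (9.07), and replicate 4 was lowest for Rnf144a (8.09) and Usp14 (7.16). Among the GW347845 arrays, replicate 2 was highest for Rnf5 (9.41) and replicate 4 for Usp47 (10.33).

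For 32 named members the change with GW610742 minus that with GW347845 passed limma's test of the difference. It was positive for Fbxo25 (0.78), Usp1 (0.67), Cul1 (0.65), Ube2q1 (0.57), Usp14 (0.47), Rnf121 (0.44), Trim47 (0.42), Ube2j1 (0.31), Ube2q2 (0.30), Usp37 (0.26), Fbxo38 (0.25), Rnf14 (0.24), Ube2a (0.23), Rnf168 (0.20), Rnf138 (0.19) and Cul2 (0.13). It was negative for Rnf4 (-0.39), Rnf5 (-0.33), Fbxo36 (-0.27), Usp16 (-0.25), Cul4a (-0.24), Usp19 (-0.23), Rnf215 (-0.22), Fbxo10 (-0.21), Trim28 (-0.21), Fbxo9 (-0.19), Fbxo3 (-0.18), Fbxo31 (-0.18), Usp54 (-0.18), Ube2d2a (-0.17), Rnf34 (-0.14) and Ube2o (-0.13). The differences of Ube2q2, Usp37, Rnf168, Cul2, Fbxo36 and Trim28 were called although neither agonist's own change was. Of these 6, Cul2 lost its call without GW610742 replicate 2 or 3, Usp37 without GW610742 replicate 1, 2, 3 or 5 or GW347845 replicate 6, and Trim28 without any 1 of GW610742 replicates 2 to 6 or GW347845 replicates 4 to 6.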

How the results depend on the processing

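Leaving out single arrays aside, all members called with an agonist or in the difference kept their direction where measured, and no named result reversed. A direction could change only with array weights, scaling by cyclic loess, averaged probes, or replicates 1 to 3 or 4 to 6 alone. The other settings left the difference between group means unchanged, so they bear on the calls and not on the direction. Among them was median centring, because the arrays of a set already had equal medians. At an unadjusted p under 0.05, 16 members rose and 29 fell with GW610742, 28 rose with GW347845 and 38 were lower with GW610742 than with GW347845. With array weights 10 rose with GW610742, and with the methods' t-test after Benjamini-Hochberg adjustment 8 rose with GW347845. Replicates 1 to 3 alone gave 0 rises by limma (6 with all arrays) and 1 fall with GW610742, 9 rises with GW347845 and 11 members lower with GW610742 than with GW347845. Replicates 4 to 6 alone gave 3 rises and 6 falls with GW610742, 8 falls with GW347845 and 9 members higher with GW610742. These fits hold 3 arrays per group.

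With 1 array left out, 4 to 7 members rose and 9 to 16 fell with GW610742, 7 to 17 rose and 15 to 20 fell with GW347845, and 15 to 20 were higher and 10 to 26 lower with GW610742 than with GW347845. Falls with GW610742 numbered 10 or fewer without GW610742 replicate 1, 2 or 5 or DMSO replicate 4 or 6. Rises with GW347845 numbered 10 or fewer without GW347845 replicate 4 or 5 or DMSO replicate 1, 3, 4, 5 or 6. Members lower with GW610742 numbered 10 or 11 without GW610742 replicate 2 or 4 or GW347845 replicate 4 or 5, and 26 without GW347845 replicate 3. The cause was not tested. The deviations of same-numbered agonist and DMSO arrays correlated at over 0.1 in 3 of 6 pairs with GW610742 and 5 of 6 with GW347845, where the highest was 0.54. The labels tie no numbers together and the correlation did not hold in every pair, so the numbers were not treated as pairs. With the replicate number as a block, 6 rose and 12 fell with GW610742, 19 rose and 20 fell with GW347845, and 18 were higher and 19 lower with GW610742. With replicates 1 to 3 and 4 to 6 as blocks, chosen after seeing the data, the counts were 6 and 17, 22 and 19, and 18 and 25.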
